A study of Mus musculus with 12 samples.

Results

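The genes described here encode the cathepsins, the lysosome-associated membrane proteins (Lamps) and the vacuolar proton pump (V-ATPase) of the mouse. They were the protein-coding entries of the deposited table whose names read Cts plus 1 letter, Lamp plus a number, or begin with Atp6v or Atp6ap. The rule found 48 genes among 55862 entries, of which 21926 are protein-coding: 18 cathepsins, 4 Lamps, 25 pump genes and Atp6v1fnb, which matches by name but is not a pump subunit. RNA of C57BL/6 mouse brain cells was sequenced in 4 groups of 3 libraries. A-iSC are astrocytes after 5 days of incubation, grown as 3D cell spheres per the design text. P56-NSC and P0-NSC are brain-derived cells that served as positive controls, called NSC in the sample titles and NPC in the design text; their labels give no incubation and no age beyond these names. AST are astrocytes at 0 days of incubation, the negative control. No genetic change is given for any group. Whether the 3 libraries of a group stem from separate animals or cultures is not stated in the labels; p-values thus reflect the spread among libraries alone, and that spread may be technical.

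Lysosomes are acidic organelles in which hydrolases break down proteins, lipids and sugars delivered by endocytosis, phagocytosis and autophagy. Cathepsins are their main proteases, Lamps are abundant glycoproteins of their membrane, and the V-ATPase uses ATP in its cytosolic V1 sector to drive protons through its membrane-embedded V0 sector. In the brain, microglia, the resident macrophages, are known for high levels of several cathepsins, and neurons load synaptic vesicles by means of the same pump.

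The libraries held 17077780 to 24452419 reads, recovered from the FPKM values (fragments scaled to gene length and library size), and a single read contributed 0.0343 to 0.0623 FPKM per kilobase of gene. All 4 groups carried markers of other cells. The summed FPKM of 20 microglia and macrophage markers was 3234 to 4740 in A-iSC, 945.2 to 1005 in P56-NSC, 186.1 to 228.9 in P0-NSC and 299.3 to 395.1 in AST, and none of the 20 was listed at 0 throughout a group. P56-NSC also held 12750 to 14450 FPKM of 16 oligodendrocyte lineage genes, against 124.2 to 147.5 FPKM in AST. Red blood cell genes summed to 360.0 to 565.2 FPKM in P56-NSC, 162.9 to 338.5 FPKM in P0-NSC and at most 0.424 FPKM in AST, and neuron markers to 352.7 to 429.4 FPKM in P56-NSC, 1021 to 1221 FPKM in P0-NSC and 97.64 to 133.8 FPKM in AST. The 14 fibroblast and mural cell markers summed to 41.9 to 74.1 FPKM in A-iSC, 30.7 to 45.03 FPKM in P56-NSC, 194 to 197 FPKM in P0-NSC and 1898 to 2292 FPKM in AST. Counted singly, 9 of these 14 rose and 4 fell in P0-NSC relative to AST, at a median log2 change of 1.91. The sum and the counts thus pointed opposite ways for P0-NSC. For P56-NSC against AST, 6 rose and 6 fell. The 12 choroid plexus and ependyma markers summed to 86.8 to 99.2 FPKM in A-iSC, 1775 to 3566 FPKM in P56-NSC, 869.8 to 3974 FPKM in P0-NSC and 59.3 to 71.2 FPKM in AST. The 16 astrocyte markers summed to only 235.6 to 263.5 FPKM in AST, the lowest of the 4 groups, and Gfap, the astrocyte intermediate filament, averaged 970.0 ± 447.5 FPKM in A-iSC and 29.9 ± 2.30 FPKM in AST (SD, n = 3 each). The summed FPKM of the 15 stem and progenitor markers was highest in AST, at 2702 to 3693. Gene by gene, 8 of these 15 were called higher and 7 lower in P0-NSC than in AST. In A-iSC 4 were called higher and 6 lower than in AST, and in P56-NSC 3 and 10. AST 2 and A-iSC 3 stood apart within their groups by gene length, with short genes higher in AST 2 and long genes higher in A-iSC 3. In bulk RNA, fewer cells of a type and less RNA per cell cannot be told apart.

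Genes were tested with limma on log2(FPKM + 1), so every log2 change below is on that scale and understates the change of low genes. A change counted as called when its p, adjusted by Benjamini-Hochberg over all 15747 genes tested, was below 0.05; a gene was tested if 3 or more libraries reached 1 FPKM. Of the 48 genes, 34 passed this filter: 12 cathepsins, 3 Lamps and 19 pump genes. Ctse, Atp6v0d2 and Lamp5 passed through 1 group only and so had to differ between groups.

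**Figure D1:**
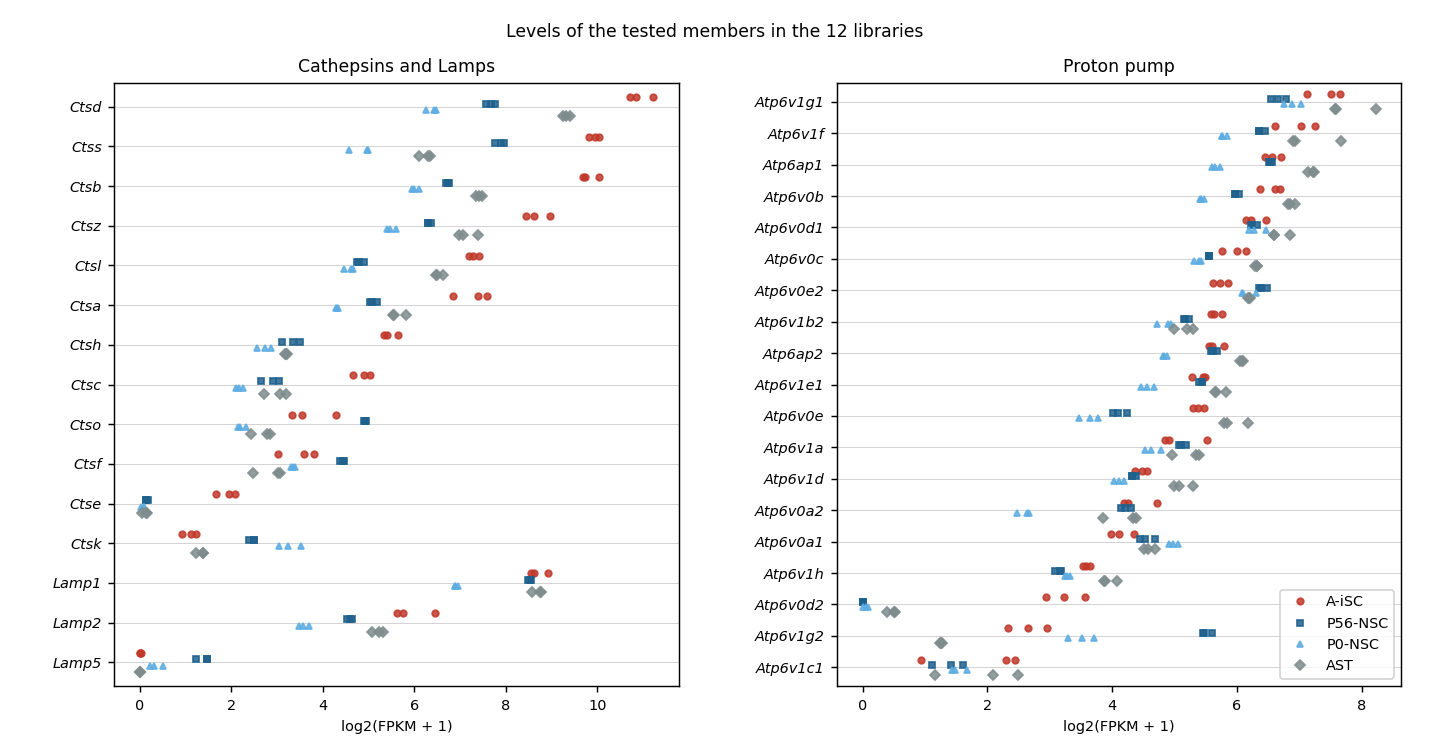
Levels of the 34 genes tested. Each row is a gene, each point 1 library, coloured by group, and the x axis is log2(FPKM + 1); Ctsd, Ctss and Ctsb lie furthest right in A-iSC, while most pump genes lie furthest right in AST.

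After 5 days of incubation, 11 of the 12 cathepsins tested rose in A-iSC relative to AST and none fell, 9 of them by 2-fold or more. All 34 genes together gave 15 higher and 11 lower calls in this comparison. Of all genes tested, 28.1% were called higher and 30.8% lower, and 9.15% were higher and 9.61% lower by 2-fold or more. The median log2 change of the cathepsins was 1.62, that of all genes tested 0. Without Ctse the counts were 10 of 11 higher and 8 by 2-fold or more, at a median of 1.60. The FPKM of all 18 cathepsins summed to 4681 ± 666 in A-iSC, 750.5 ± 35.5 in P56-NSC, 291.5 ± 12.04 in P0-NSC and 1199 ± 61.4 in AST (SD, n = 3 each; every mean ± below has this SD and n, and log2 changes carry their standard error).

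Ctss (chr3:95526786-95556403 in GRCm38), which encodes cathepsin S, the cysteine protease that trims the invariant chain for antigen presentation, had 1046, 906 and 982 FPKM in A-iSC, 238, 215 and 248 FPKM in P56-NSC, 22.6, 30.6 and 30.3 FPKM in P0-NSC, and 67.3, 80.0 and 78.2 FPKM in AST. No 2 groups overlapped, and A-iSC exceeded AST by 3.69 ± 0.13 (log2; limma adjusted p = 1.2e-09). The order of the groups, A-iSC over P56-NSC over AST over P0-NSC, was also that of the summed microglia markers. In that list 19 of 20 markers rose in A-iSC relative to AST, among them C1qa, a complement component, by 3.54, and Aif1, which encodes the microglial protein Iba1, by 3.35. Of the fibroblast and mural cell markers, 2 of 14 were called higher and 7 lower in A-iSC than in AST. What part these other cells have in the levels given here was not tested.

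Ctsb and Ctsd encode cathepsins B and D, a cysteine and an aspartic protease found in most cell types. Ctsb (chr14:63122462-63145923) had 1055, 848 and 827 FPKM in A-iSC, against 169, 163 and 177 FPKM in AST, a log2 change of 2.41 ± 0.11 (limma adjusted p = 7.2e-09). Ctsd (chr7:142375911-142388038) had 2392, 1839 and 1671 FPKM in A-iSC, against 612, 677 and 639 FPKM in AST, and rose by 1.60 ± 0.14. For neither gene did the groups overlap. Ctsd alone made up 41.8% ± 2.11 of the cathepsin FPKM in A-iSC and 53.6% ± 0.193 in AST (SD, n = 3 each), while the share of Ctss was 21.1% ± 2.11 in A-iSC and 6.27% ± 0.356 in AST. Ctsb and Ctsd were called lower in P56-NSC than in AST, and 16 of the 20 microglia markers were called higher there. The part of microglia and of other cells in the levels of Ctsb and Ctsd was not tested. Ctsb had 102 to 107 FPKM and Ctsd 190 to 216 FPKM in the 3 P56-NSC libraries.

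The other cathepsins that rose by 2-fold or more were Ctsh, Ctsc, Ctse, Ctsa, Ctsz and Ctso. Ctsh, an aminopeptidase, had 39.6, 41.1 and 49.1 FPKM in A-iSC, against 7.99, 8.34 and 8.21 FPKM in AST, and rose by 2.26 ± 0.12. Ctsc, the dipeptidyl peptidase that activates granule serine proteases, had 28.8, 24.3 and 31.9 FPKM in A-iSC, against 7.40, 5.59 and 8.08 FPKM in AST, and rose by 1.87 ± 0.14. For both genes every A-iSC library lay above every AST library. Ctsa, a serine carboxypeptidase that also protects beta-galactosidase and neuraminidase, had 192, 166 and 113 FPKM in A-iSC, against 45.1, 55.7 and 46.3 FPKM in AST. Ctsz, a carboxypeptidase, had 497, 394 and 347 FPKM in A-iSC, against 133, 167 and 125 FPKM in AST. Ctsa rose by 1.64 ± 0.16 and Ctsz by 1.53 ± 0.14, again without overlap. Ctsa overlaps Pltp on the other strand by 1515 bases and Ctsb overlaps Fdft1 by 774 bases, so reads of these pairs may be mixed, since the library kit does not mark strand; Pltp reached at most 79.3 FPKM and Fdft1 42.5 FPKM. Ctso varied more within A-iSC, with 10.7, 8.96 and 18.6 FPKM there and 5.84, 4.35 and 6.15 FPKM in AST (log2 change 1.04 ± 0.20, limma adjusted p = 0.00086). Its highest A-iSC value came from A-iSC 3, the library in which long genes were high. Ctse, the aspartic protease cathepsin E of endosomes, was near 0 outside A-iSC, with 183, 162 and 271 reads in A-iSC and 5, 7 and 2 reads in AST; it had 2.86, 2.15 and 3.19 FPKM in A-iSC and at most 0.134 FPKM in any other library.

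Ctsl, cathepsin L, rose by less, with 170, 156 and 147 FPKM in A-iSC and 87.4, 97.2 and 89.7 FPKM in AST (log2 change 0.78 ± 0.09, limma adjusted p = 2.1e-05). Ctsf, another cysteine cathepsin, had 7.06, 11.01 and 13.04 FPKM in A-iSC and 7.29, 4.57 and 7.15 FPKM in AST, so the groups overlapped. Its call, a log2 change of 0.62 with a limma adjusted p of 0.015, was lost without A-iSC 2 (0.56, adjusted p = 0.052), without A-iSC 3 (0.45, adjusted p = 0.054) and without AST 2 (0.43, adjusted p = 0.065). Ctsk, cathepsin K, best known as the collagenase of osteoclasts, was the only cathepsin tested that was not called, with 0.888 to 1.33 FPKM in A-iSC and 1.32 to 1.60 FPKM in AST, though quantile normalization called it lower. Without AST 2 and A-iSC 3 together, 10 of the 12 cathepsins rose, 8 by 2-fold or more. Of all 15747 genes tested, 4866 were then called higher, 1679 by 2-fold or more. Ctse, which had to differ between groups, is among the 12.

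**Figure D2:**
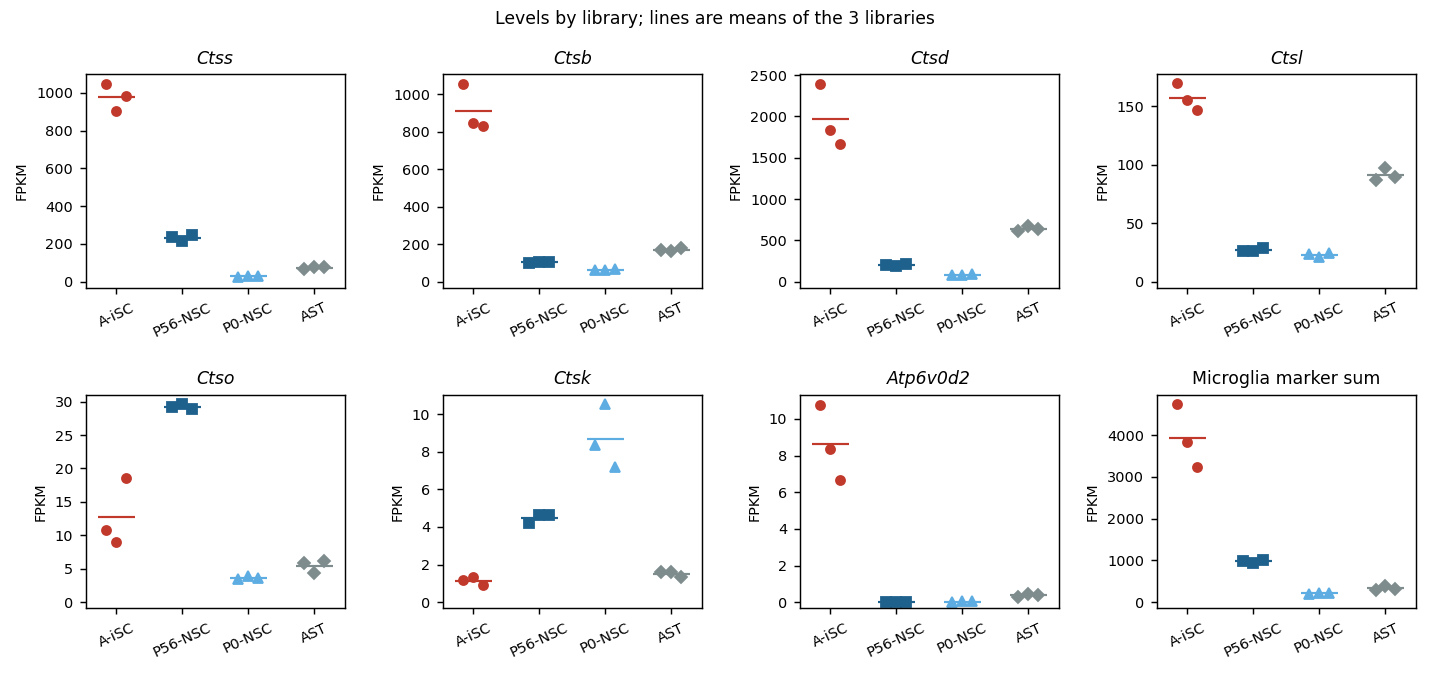
FPKM (y axis, linear from 0) of 6 cathepsins, Atp6v0d2 and the summed microglia and macrophage markers in each of the 12 libraries, by group; lines are means of 3 libraries. Ctss orders the groups as the marker sum does, Ctsb, Ctsd and Ctsl are lower in P56-NSC than in AST, Ctso is highest in P56-NSC at 28.8 to 29.7 FPKM, and Ctsk is highest in P0-NSC at 7.18 to 10.5 FPKM.

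TFEB, TFE3 and MITF, transcription factors known to activate many lysosomal genes, recognise the hexamer CACGTG, which other basic helix-loop-helix factors bind too. RefSeq promoter windows (GRCm38.p6, spanning the annotated start of each gene) were matched by symbol to 37 of the 48 genes, in 42 windows. CACGTG, which reads the same on both strands, stood in the windows of 9 of these 37 genes (24.3%) and in 8.09% of all 27025 genes with a window, or 7.15% of all 32851 windows. The octamer TCACGTGA, which contains the hexamer and is also the same on both strands, stood in 5 of the 37 genes (13.5%) and in 304 of all 27025 genes with a window. Of the genes that rose by 2-fold or more in A-iSC and had a window, 2 of 7 held the hexamer, Ctsa and Ctsd, against 7 of the 18 other tested genes with a window. A match of letters is a description and does not show a binding site. The windows of Ctsa and Ctsd are shown because these genes rose and hold the octamer, and that of Lamp1, chosen after its values were seen, because it holds 4 copies of the hexamer while its level did not pass the test in A-iSC. Capitals mark CACGTG, and each window runs 5′ to 3′ on the strand of the gene.
Ctsa, chr2:164833523-164833822, plus strand: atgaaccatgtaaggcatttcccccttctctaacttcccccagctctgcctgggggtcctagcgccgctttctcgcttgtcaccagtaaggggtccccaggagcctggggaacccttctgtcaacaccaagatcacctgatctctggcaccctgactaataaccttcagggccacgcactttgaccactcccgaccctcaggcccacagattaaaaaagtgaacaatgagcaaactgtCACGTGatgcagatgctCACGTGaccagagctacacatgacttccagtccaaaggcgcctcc
Ctsd, chr7:142387778-142388077, minus strand: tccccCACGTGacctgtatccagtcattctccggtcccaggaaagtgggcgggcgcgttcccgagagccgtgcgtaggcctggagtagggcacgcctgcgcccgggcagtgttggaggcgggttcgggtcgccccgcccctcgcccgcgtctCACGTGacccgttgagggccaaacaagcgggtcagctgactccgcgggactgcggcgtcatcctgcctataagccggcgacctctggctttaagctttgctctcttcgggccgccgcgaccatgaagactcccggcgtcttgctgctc
Lamp1, chr8:13158911-13159210, plus strand: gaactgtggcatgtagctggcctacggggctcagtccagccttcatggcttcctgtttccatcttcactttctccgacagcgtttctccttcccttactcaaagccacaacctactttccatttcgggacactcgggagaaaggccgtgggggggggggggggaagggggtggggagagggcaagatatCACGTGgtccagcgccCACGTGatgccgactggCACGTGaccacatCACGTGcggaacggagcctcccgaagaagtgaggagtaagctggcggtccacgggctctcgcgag
Ctsa has another RefSeq window, chr2:164832622-164832921, at the gene start of the deposited table, and it holds no CACGTG. In the Ctsa window shown, which belongs to a start further downstream, the hexamers start 12 bases before and 5 bases after that start, in Ctsd 245 and 98 bases before its start, and in Lamp1 61, 45, 28 and 15 bases before its start. Of the 2 copies in Ctsd, the one nearer to the start is part of the octamer; in Ctsa both are. The other matches were in Atp6v0d1, Atp6v0e and Atp6v1a, with the octamer, and in Atp6v0b, Ctsf and Ctsl, with the hexamer alone.

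Lamp1 and Lamp2, the main membrane glycoproteins of lysosomes, behaved differently. Lamp1 had 390, 376 and 485 FPKM in A-iSC, against 426, 381 and 436 FPKM in AST, with overlapping groups and a log2 change of 0.00 ± 0.12 (limma adjusted p = 0.99). Lamp2, whose loss causes Danon disease in humans, had 52.9, 48.0 and 86.0 FPKM in A-iSC and 36.5, 32.9 and 38.9 FPKM in AST, without overlap. Its log2 change was 0.73 ± 0.17 (limma adjusted p = 0.0035), and A-iSC 3 was 1.70 times the mean of A-iSC 1 and 2. Lamp5, a Lamp of certain neurons, was read in 1 of 3 A-iSC libraries, as 1 read, and was at 0 in AST.

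**Figure D3:**
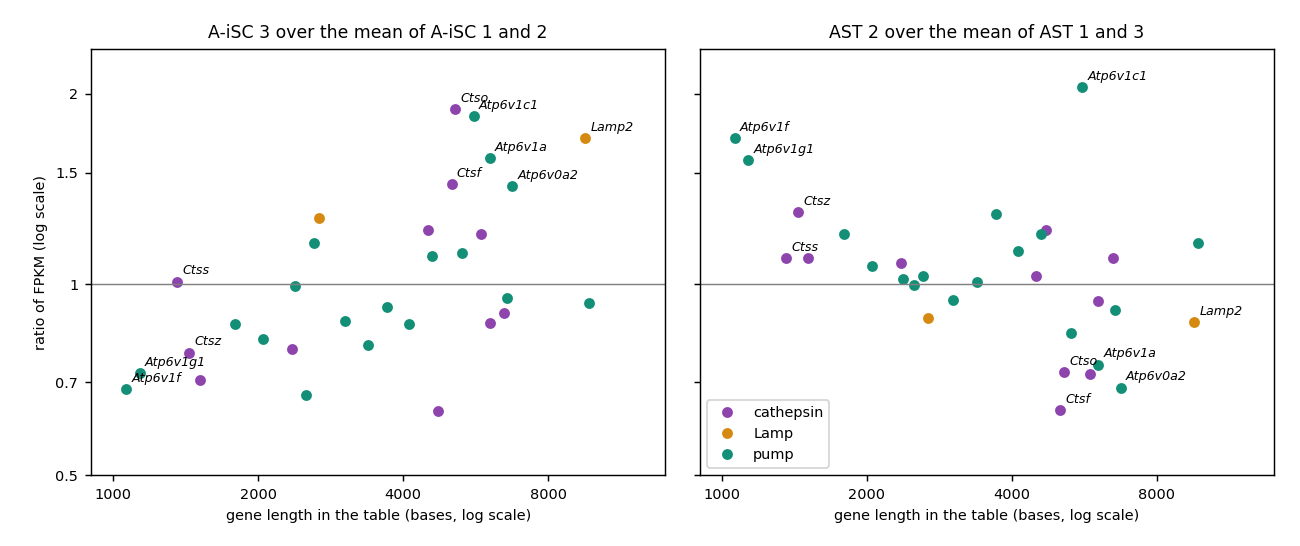
Ratio of FPKM (y axis, log scale) of A-iSC 3 to the mean of A-iSC 1 and 2 (left) and of AST 2 to the mean of AST 1 and 3 (right), against gene length in the table (x axis, log scale), for 31 genes tested; Ctse, Atp6v0d2 and Lamp5 are not drawn. The short genes Atp6v1f and Atp6v1g1 were 1.70 and 1.57 times as high in AST 2 and 0.683 and 0.725 times as high in A-iSC 3, and Ctso, Lamp2 and Atp6v1a were 1.89, 1.70 and 1.58 times as high in A-iSC 3. Not every gene followed length: Atp6v1c1 (5601 bases) was 2.05 times as high in AST 2, and Atp6v1h (9746 bases) 1.16 times in AST 2 and 0.935 times in A-iSC 3.

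The pump genes moved the other way and by much less. Of 19 tested, 3 rose and 11 fell in A-iSC relative to AST, none of them by 2-fold or more downward, and their median log2 change was -0.34. Without Atp6v0d2, 2 of 18 rose and 11 fell, at a median of -0.35. The falls depended on how libraries were scaled: 5 pump genes were called lower after scaling by total reads (Atp6v1d, Atp6ap1, Atp6v0e, Atp6v0e2 and Atp6ap2), and 1, Atp6v1d, after quantile normalization, while 3 and 4 pump genes were called higher. The cathepsins gave 11 higher calls under each of the 3 scalings, and Ctsk was called lower after quantile normalization (-0.38, limma adjusted p = 0.025). Scaling by total reads moved the median of all genes to 0.12 and the share of higher calls among all called genes to 61.0%, against 47.7% as deposited. After quantile normalization that median was 0.01 and that share 49.8%. The summed FPKM of all 25 pump genes was 978 ± 77.95 in A-iSC, 833.1 ± 17.99 in P56-NSC, 640.4 ± 28.9 in P0-NSC and 1229 ± 128 in AST.

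In V1, the catalytic sector, Atp6v1d, a subunit of the central rotor, had 21.2, 19.5 and 22.6 FPKM in A-iSC, against 32.7, 38.1 and 30.7 FPKM in AST, and its log2 change of -0.65 ± 0.10 (limma adjusted p = 9.6e-05) stayed past the threshold in each alternative tried. Atp6v1h, a subunit that couples V1 to V0, averaged 11 ± 0.526 FPKM in A-iSC and 14.4 ± 1.27 FPKM in AST, and Atp6v1e1, of the peripheral stalk, 41.5 ± 3.42 and 51.6 ± 3.72 FPKM (SD, n = 3 each). Both were called lower, and both calls were lost after scaling by total reads. Atp6v1b2, the B subunit of the catalytic ring, rose by 0.50 ± 0.10, with 46.8, 48.3 and 53.4 FPKM in A-iSC and 38.03, 30.9 and 35.6 FPKM in AST. Atp6v1a, the ATP-hydrolysing A subunit, averaged 33.9 ± 9.57 FPKM in A-iSC and 36.8 ± 5.91 FPKM in AST, with overlap. Atp6v1f and Atp6v1g1, of the rotor and the stalk, were not called either, at 96.1 to 152 and 138 to 198 FPKM in A-iSC and 118 to 202 and 189 to 297 FPKM in AST. Atp6v1c1, the C subunit that regulates sector assembly, varied within groups, with 3.94, 0.909 and 4.46 FPKM in A-iSC and 1.25, 4.61 and 3.25 FPKM in AST, and no comparison called it.

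In V0, the proton channel, the ring subunits Atp6v0b and Atp6v0c averaged 93.2 ± 10.7 and 61.9 ± 8.30 FPKM in A-iSC, against 115.5 ± 4.57 and 78.2 ± 0.816 FPKM in AST. Their log2 changes of -0.31 and -0.34 were called, lost after scaling by total reads and turned to 0.06 each by quantile normalization. Reads of Atp6v0c may be shared with a processed pseudogene, Atp6v0c-ps2, so its level is uncertain. The accessory subunits Atp6ap1 and Atp6ap2, which act in pump assembly, were lower in A-iSC by -0.62 ± 0.09 and -0.43 ± 0.08 on the log2 scale. Atp6ap1 had 103.6, 93.45 and 86.3 FPKM in A-iSC, against 147, 139.5 and 148.5 FPKM in AST, without overlap.

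**Figure D4:**
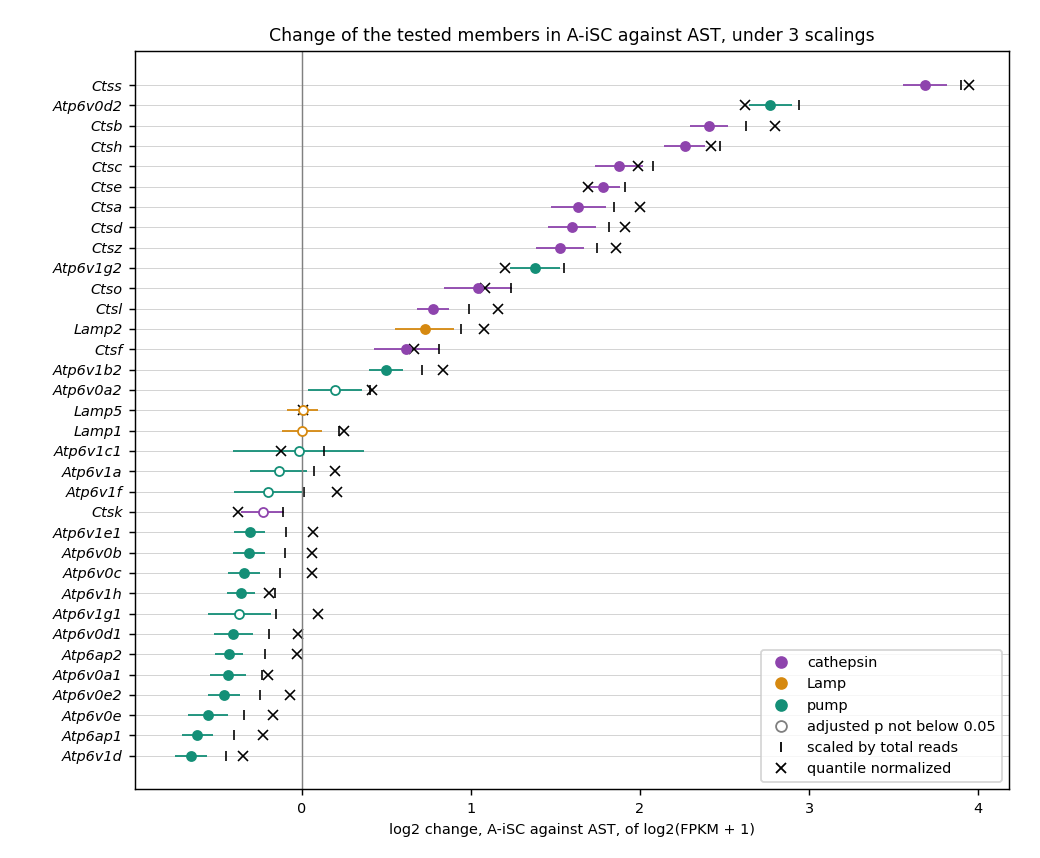
Log2 change of the 34 genes tested in A-iSC against AST (x axis), with the standard error as a bar; filled points passed the test and open points did not. Vertical ticks and crosses give the same change after scaling by total reads and after quantile normalization: the cathepsins at the top keep their direction, while the called pump genes Atp6v0b, Atp6v0c and Atp6v1e1 cross 0 after quantile normalization.

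Several pump subunits are encoded by alternative genes, and the genes in use differed between groups. Atp6v0d2, a d subunit known from osteoclasts and macrophages, had 10.8, 8.36 and 6.67 FPKM in A-iSC, 0 in the 3 P56-NSC libraries, 0, 0.0379 and 0.0668 FPKM in P0-NSC, and 0.307, 0.436 and 0.416 FPKM in AST. The A-iSC libraries lay above every other library, at a log2 change of 2.77 ± 0.13 against AST; since the gene entered the fit through A-iSC alone, this difference is a description. Taking 3 reads per library as the floor where none was seen, Atp6v0d2 was at least 125-fold higher in A-iSC than in P56-NSC. It made up 9.99% ± 1.15 of the FPKM of the d subunit genes in A-iSC and 0.378% ± 0.0575 in AST, the rest being the widely expressed Atp6v0d1, which had 86.9, 73.9 and 69.5 FPKM in A-iSC and 95.8, 114 and 95.3 FPKM in AST. The call of Atp6v0d1, -0.41 ± 0.12, was lost under both other scalings and, at -0.25 with a limma adjusted p of 0.054, without AST 2 and A-iSC 3.

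Atp6v1g2, the G subunit gene known as neuronal, rose in all 3 groups relative to AST. It had 5.26, 6.74 and 4.01 FPKM in A-iSC, 43.0, 47.4 and 43.4 FPKM in P56-NSC, 8.76, 12.1 and 10.4 FPKM in P0-NSC, and 1.43, 1.40 and 1.37 FPKM in AST, with no overlap between any 2 groups. The log2 changes against AST were 1.38 ± 0.15 in A-iSC, 4.25 ± 0.15 in P56-NSC and 2.24 ± 0.15 in P0-NSC. Its share of the G subunit FPKM was 3.00% ± 0.521 in A-iSC, 30.9% ± 2.83 in P56-NSC, 8.19% ± 1.71 in P0-NSC and 0.644% ± 0.154 in AST. The summed neuron markers gave another order, with the highest sum in P0-NSC. Marker by marker, P56-NSC passed the test above P0-NSC for 8 of the 18 and below it for 8, at a median log2 change of 0.03. Relative to AST, 8 rose and 3 fell in A-iSC, though their sum was lower there. The part of neurons in the levels of Atp6v1g2 was not tested. Atp6v1g2 overlaps Nfkbil1 on the other strand by 2133 bases, and their reads may be mixed. Nfkbil1 reached at most 8.04 FPKM.

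Atp6v0a1 and Atp6v0a2 encode alternative a subunits, the first known from neurons and the second from Golgi and endosomes. Atp6v0a1 had 19.4, 14.8 and 16.2 FPKM in A-iSC, 22.0, 24.8 and 20.9 FPKM in P56-NSC, 30.3, 29.1 and 32.0 FPKM in P0-NSC, and 24.6, 21.6 and 22.9 FPKM in AST. Atp6v0a2 had 17.2, 18.02 and 25.2 FPKM in A-iSC, 17.3, 18.7 and 16.7 FPKM in P56-NSC, 5.32, 5.22 and 4.58 FPKM in P0-NSC, and 19.9, 13.4 and 19.1 FPKM in AST. P0-NSC was thus highest for the one and lowest for the other, and Atp6v0a2 made up 54.2% ± 6.89 of the a subunit FPKM in A-iSC, 43.8% ± 0.782 in P56-NSC, 14.2% ± 1.48 in P0-NSC and 42.8% ± 3.98 in AST. Tcirg1, the a3 subunit of osteoclast and macrophage pumps, does not match the name rule and is not in these shares; it averaged 31.4 ± 12.2 FPKM in A-iSC and 13.1 ± 0.958 FPKM in AST and rose by 1.12 ± 0.23.

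Of the e subunit genes, Atp6v0e had 40.3, 43.1 and 38.4 FPKM in A-iSC, 16.1, 15.1 and 17.8 FPKM in P56-NSC, 11.5, 10.1 and 12.6 FPKM in P0-NSC, and 56.03, 71.0 and 54.1 FPKM in AST. Atp6v0e2 had 47.8, 56.7 and 52.0 FPKM in A-iSC, 80.4, 82.8 and 88.3 FPKM in P56-NSC, 67.0, 66.6 and 78.3 FPKM in P0-NSC, and 71.9, 72.6 and 71.1 FPKM in AST. Atp6v0e was therefore 43.8% ± 1.73 of the pair in A-iSC, 16.3% ± 0.752 in P56-NSC, 13.9% ± 0.742 in P0-NSC and 45.5% ± 3.44 in AST. For B, C and E subunits a single gene held most of the FPKM in every library. Atp6v1b2 had at least 99.8% of the B subunit FPKM, Atp6v1e1 at least 99.6% of the E subunit FPKM and Atp6v1c1 at least 71.0% of the C subunit FPKM. Atp6v1b2 had 34.7, 36.4 and 34.6 FPKM in P56-NSC and 25.4, 29.9 and 28.7 FPKM in P0-NSC. Atp6v1e1 had 43.9, 43.0 and 37.6 FPKM in A-iSC, 42.4, 41.1 and 42.5 FPKM in P56-NSC, 20.9, 22.5 and 24.4 FPKM in P0-NSC, and 49.0, 55.9 and 49.9 FPKM in AST, so P0-NSC was lowest. Atp6v1c1 had 2.06, 1.66 and 1.16 FPKM in P56-NSC and 1.69, 1.79 and 2.17 FPKM in P0-NSC. Atp6v1g1 had 198, 181 and 138 FPKM in A-iSC, 100.3, 91.8 and 109 FPKM in P56-NSC, 117, 107 and 129 FPKM in P0-NSC, and 189, 297 and 190 FPKM in AST, where AST 2 was high.

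**Figure D5:**
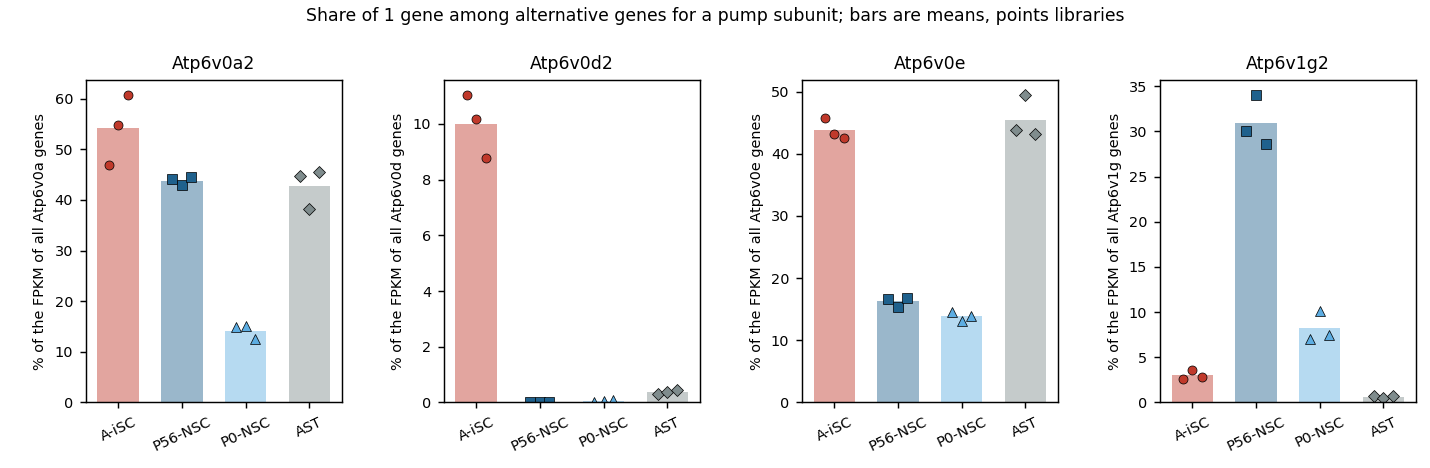
Share of 1 gene in the FPKM of the genes for the same pump subunit that match the name rule (y axis, percent), by group. Tcirg1, a further a subunit gene, does not match the rule and is left out of the Atp6v0a2 shares. Bars are means of 3 libraries and points are libraries. Atp6v0d2 is near 0 outside A-iSC, Atp6v1g2 is highest in P56-NSC, Atp6v0a2 is lowest in P0-NSC, and Atp6v0e is lower in P56-NSC and P0-NSC than in A-iSC and AST.

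The positive controls were compared with AST by the same fit; these comparisons and the one above share the AST libraries. In P56-NSC, 6 of the 34 genes were higher and 18 lower, where 37.1% of all genes tested were higher and 37.0% lower. Scaling by total reads moved the median of all genes to -0.24 and the share of higher calls to 38.7%, against 50.1% as deposited. The 6 were Atp6v1g2, Ctso, Ctss, Ctsf, Lamp5 and Ctsk, each by 2-fold or more. Ctso, a cysteine cathepsin of wide expression, had 29.3, 29.7 and 28.8 FPKM in P56-NSC, against 5.84, 4.35 and 6.15 FPKM in AST, and rose by 2.24 ± 0.20. Ctsf averaged 20.6 ± 0.690 FPKM in P56-NSC and 6.33 ± 1.53 FPKM in AST (SD, n = 3 each). Lamp5 had 1.75, 1.74 and 1.34 FPKM in P56-NSC and 0.164, 0.422 and 0.235 FPKM in P0-NSC, with no read in AST. Against a floor of 3 reads per AST library that is at least 26.4-fold higher in P56-NSC and at least 4.48-fold higher in P0-NSC. It passed the filter through P56-NSC alone. Without Lamp5, Ctse and Atp6v0d2 the P56-NSC counts were 5 higher and 17 lower of 31.

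The 4 genes lower by 2-fold or more in P56-NSC were Atp6v0e, Ctsl, Ctsd and Atp6v1g1, with log2 changes of -1.82, -1.71, -1.66 and -1.13. Ctsl had 26.7, 25.9 and 29.0 FPKM in P56-NSC, against 87.4, 97.2 and 89.7 FPKM in AST. The smaller falls included Ctsz (-0.83), Ctsb (-0.69), Ctsa (-0.55) and 10 further pump genes besides Atp6v0e and Atp6v1g1. Lamp2 also fell, by 0.62, a call lost after quantile normalization. Ctsh, Ctsc and Ctse were not called, nor was Lamp1, which had 366, 355 and 375 FPKM in P56-NSC. Of the 20 microglia markers, 16 were called higher in P56-NSC than in AST and none lower; their part in these results, and that of the oligodendrocyte and red blood cell genes, was not tested.

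In P0-NSC, 5 of the 34 genes were higher than in AST and 25 lower, 16 of these by 2-fold or more, where 35.9% of all genes tested were higher and 38.3% lower. Scaling by total reads moved the median of all genes to 0.16 and the share of higher calls to 58.8%, against 48.4% as deposited. The median log2 change was -1.07 for the cathepsins and -0.90 for the pump genes, against -0.04 for all genes tested. Without Lamp5, Ctse and Atp6v0d2, 4 of 31 were higher and 24 lower. The medians were then -1.33 for the cathepsins and -0.92 for the pump genes. Ctsd had 85.7, 75.8 and 88.1 FPKM in P0-NSC, against 612, 677 and 639 FPKM in AST, a log2 change of -2.94 ± 0.14 (limma adjusted p = 3.6e-09). Lamp1 had 117, 118 and 122.6 FPKM in P0-NSC and 426, 381 and 436 FPKM in AST, and fell by 1.79 ± 0.12. Neither gene's groups overlapped. Ctsl, Ctsz, Ctss, Ctsb, Ctsa, Lamp2, Atp6v0e, Atp6v0a2, Atp6ap1, Atp6v0b, Atp6v1f, Atp6ap2, Atp6v1e1 and Atp6v1d made up the rest of the 16, with log2 changes of -2.31 to -1.01. Of the 20 microglia markers, 3 were called higher and 10 lower in P0-NSC, and their part in the falls was not tested.

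Ctsk went against this pattern. It had 8.36, 10.5 and 7.18 FPKM in P0-NSC and 4.19, 4.62 and 4.62 FPKM in P56-NSC, against 1.58, 1.60 and 1.32 FPKM in AST, without overlap, and rose by 1.94 ± 0.13 in P0-NSC and 1.13 ± 0.13 in P56-NSC. The other 4 genes higher in P0-NSC were Atp6v1g2, Atp6v0a1 (0.39 ± 0.11), Lamp5 and Ctsf. The call of Ctsf, 0.50 with a limma adjusted p of 0.033, was lost without AST 2 (0.31, adjusted p = 0.145) and without each P0-NSC library in turn (adjusted p = 0.081, 0.070 and 0.059 without P0-NSC 1, 2 and 3). Among the falls, Atp6v0d1 (-0.37) lost its call without P0-NSC 1 (-0.31, limma adjusted p = 0.055). It was called higher after quantile normalization (0.29, limma adjusted p = 0.0077). Atp6v1b2 (-0.30) lost its call without P0-NSC 1 or AST 1 (-0.24 each, limma adjusted p = 0.071 and 0.070). It was 0.10 and not called after quantile normalization. Scaling by total reads ended both calls (-0.08 and -0.02). Atp6v1a (-0.59) lost its call under both other scalings. Atp6v1g1 (-0.90) lost its call after quantile normalization and Ctsh (-0.48) after scaling by total reads.

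Set directly against the positive controls, A-iSC had 18 of the 34 genes higher and 7 lower than P56-NSC, where 31.5% of all genes tested were higher and 31.3% lower. Of the cathepsins, 9 were higher and 3 lower, with a median log2 change of 2.11 (all genes tested 0.03). Without Ctse, which had to differ, 8 of 11 cathepsins were higher and 3 lower, at a median of 2.15. Ctsd, Ctsb and Ctsl were higher by 3.25 ± 0.14, 3.10 ± 0.11 and 2.49 ± 0.09. Ctsa had 32.4, 31.8 and 35.1 FPKM and Ctsz 81.7, 77.3 and 77.3 FPKM in P56-NSC, all below the A-iSC values given above. Ctsh had 9.19, 7.59 and 10.2 FPKM and Ctsc 6.52, 5.30 and 7.20 FPKM in P56-NSC, and both were called higher in A-iSC. The 7 lower genes were Atp6v1g2, Lamp5, Ctsk, Ctso, Ctsf, Atp6v0e2 and Atp6v0a1, with log2 changes of -2.87 to -0.41. After scaling by total reads 4 were lower; Ctsf (-0.44) and Atp6v0e2 (-0.13) lost their calls, and Atp6v0a1 turned to 0.12 without a call. That scaling moved the median of all genes to 0.44 and the share of higher calls to 73.4%, against 50.1% as deposited. Without Ctse, Atp6v0d2 and Lamp5, 16 of 31 genes were higher and 6 lower.

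Against P0-NSC, A-iSC had 26 of the 34 genes higher and 5 lower, where 32.6% of all genes tested were higher and 34.7% lower. Ctss exceeded P0-NSC 35.1-fold in mean FPKM, Ctsd 23.7-fold and Ctsb 14.3-fold. In P0-NSC, Ctsb had 60.4, 62.7 and 67.7 FPKM, Ctsl 23.6, 21.1 and 24.3 FPKM, and Ctsz 42.9, 41.5 and 47.2 FPKM. Ctsa had 18.6, 19.1 and 18.9 FPKM there, Ctsh 5.63, 6.27 and 4.87 FPKM, and Ctsc 3.46, 3.29 and 3.78 FPKM. For each of these 6 cathepsins every A-iSC library lay above every P0-NSC library. Lamp2 had 23.2, 22.1 and 23.7 FPKM in P56-NSC and 11.99, 10.2 and 10.8 FPKM in P0-NSC, and was higher in A-iSC than in P0-NSC by 2.36 ± 0.17. The 5 lower genes were Ctsk, Atp6v1g2, Atp6v0a1, Atp6v0e2 and Lamp5. Without Ctse, Atp6v0d2 and Lamp5, 24 of 31 genes were higher and 4 lower.

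Between the positive controls, P56-NSC had 25 of the 34 genes higher than P0-NSC and 2 lower, Ctsk and Atp6v0a1, where 35.3% of all genes tested were higher and 33.9% lower. Scaling by total reads left 10 higher and 10 lower. It moved the median of all genes to -0.45 and the share of higher calls to 27.3%, against 51.0% as deposited. Mitochondrial genes, which count in that total, held 16.5% to 17.6% of the reads in P56-NSC and 3.67% to 5.55% in P0-NSC. Their part in this shift was not tested. Ctss was higher by 3.03 ± 0.13, Ctso by 2.71 ± 0.20 and Atp6v1g2 by 2.01 ± 0.15. Ctso had 3.40, 3.96 and 3.56 FPKM in P0-NSC, far below the 3 P56-NSC libraries. In mean level over the 4 groups, and without Ctse, Atp6v0d2 and Lamp5, A-iSC was highest for 13 of 31 genes, 8 of them cathepsins, and AST for 12, all of them pump genes. P0-NSC was lowest for 22 of the 31, 9 of them cathepsins. These ranks follow the means as deposited, and shares over all genes were not counted. Lamp1, Atp6v0a2 and Atp6v1c1 were not called higher in A-iSC than in the next group. Atp6v1a, Atp6v1f and Atp6v1g1 were not so called in AST. Atp6v0c and Ctso were not called lower in P0-NSC than in the next group. After quantile normalization Atp6v0b, Atp6v0c and Atp6v1e1 changed by 0.06, 0.06 and 0.07 in A-iSC against AST.

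Other lysosomal genes were counted by lists in A-iSC relative to AST, where 28.1% of all genes tested were higher and 30.8% lower, with a median of 0. Of all 15747 genes tested, scaling by total reads called 5604 higher and 3590 lower, and quantile normalization 4280 and 4309. The list counts under these scalings, here and below, are to be read beside those totals. Of 46 hydrolases and their activators, 21 rose and 11 fell as deposited, at a median log2 change of 0.20; scaling by total reads gave 28 and 6, and quantile normalization 27 and 7. Those that rose included Lgmn, the protease legumain that processes cathepsins (345.2 ± 28.9 FPKM in A-iSC and 85.4 ± 0.655 FPKM in AST, log2 change 1.999), and Pla2g15, a lysosomal phospholipase (1.53). Grn, the progranulin gene, rose by 1.35. The largest falls were in Aga, Smpd1, which encodes acid sphingomyelinase, and Sumf1, the activator of sulfatases, at -1.37, -0.95 and -0.94. Of 28 other lysosomal membrane genes 20 rose and 3 fell, at a median of 0.63, against 22 and 1 after scaling by total reads and 20 and 1 after quantile normalization. Laptm5, a lysosomal protein of blood cells, rose by 3.15, and Cd68, a Lamp relative of macrophages, by 2.84, with 228.2 ± 85.5 FPKM in A-iSC and 29.9 ± 6.33 FPKM in AST. Gpnmb and Slc11a1, a phagosomal metal transporter, changed by 3.14 and 2.96. The 3 that fell were Ostm1 (-0.65), Laptm4b (-0.50) and Tmem192 (-0.47), and the calls of the last pair were lost under both other scalings. These changes stood beside the higher microglia marker sum in A-iSC, and the part of that sum in them was not tested.

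Of 9 cystatins and other cathepsin inhibitors tested, 4 rose and 4 fell as deposited, at a median of -0.19, while under each of the other scalings 4 rose and 2 fell. Cst7, the endolysosomal cystatin F, averaged 10.8 ± 2.57 FPKM in A-iSC and 0.490 ± 0.381 FPKM in AST and rose by 2.99. Cst3, the secreted cystatin C, averaged 2010 ± 248.2 FPKM in A-iSC and 813.6 ± 175.1 FPKM in AST and rose by 1.32. Ctla2a and Serpinb1a rose by 2.48 and 1.61, and Cst6 and Serpinb6a changed by -1.93 and -0.70. Cstb, the cytosolic cystatin B, averaged 188.2 ± 28.1 FPKM in A-iSC and 262.1 ± 29.99 FPKM in AST, a call (-0.48) that both other scalings lost.

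Of 24 genes that sort enzymes to the lysosome, 7 rose and 6 fell, shares near those of all genes, at a median of -0.01. These counts were 10 and 5 after scaling by total reads, and 9 and 3 after quantile normalization. Gnptg, a subunit of the phosphotransferase that makes the mannose 6-phosphate tag, changed by 1.06, Gga3 by 0.64 and Ap1b1 by 0.55. Both receptors of that tag were lower, Igf2r at -1.28 and M6pr at -0.61, as was Vps29 of the retromer at -0.66; the M6pr call was lost after quantile normalization. Of 21 tested genes for the MiT/TFE factors and their control, 7 rose and 3 fell as deposited, a share of rises near that of all genes, at a median of 0.15. After scaling by total reads they were 11 and 2, and 10 and 1 after quantile normalization. Mitf averaged 3.25 ± 0.249 FPKM in A-iSC and 0.766 ± 0.147 FPKM in AST (1.27), Tfeb 5.33 ± 1.03 and 2.348 ± 0.238 FPKM (0.91), and Tfe3 9.60 ± 1.80 and 6.06 ± 0.197 FPKM (0.57). All 3 rose. Fnip2 and Rragd rose by 1.26 and 0.99, while Rraga, Lamtor3 and Lamtor1 changed by -0.60, -0.59 and -0.27; Rraga lost its call and Lamtor1 its direction (0.06) after quantile normalization. Of 10 genes for assembly and regulation of the pump, Dmxl2 and Rogdi rose by 1.33 and 1.21 and Tmem199 fell by 0.68. Lgals3, a galectin that gathers at damaged lysosomes and belongs to none of these lists, averaged 240.1 ± 86.2 FPKM in A-iSC and 223.9 ± 63.6 FPKM in AST and was not called (0.07).

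The 14 genes not tested were Ctsg, Ctsj, Ctsm, Ctsq, Ctsr, Ctsw, Lamp3, Atp6ap1l, Atp6v0a4, Atp6v1b1, Atp6v1c2, Atp6v1e2, Atp6v1fnb and Atp6v1g3. Of these, Ctsj, Ctsm, Ctsq, Ctsr and Atp6v1g3 were listed at 0 in all 12 libraries, and the other 9 reached at most 1.12 FPKM, in Atp6ap1l. Ctsw, a cathepsin of cytotoxic lymphocytes, averaged 0.0841 ± 0.0473 FPKM in A-iSC and 0.430 ± 0.123 FPKM in AST.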

How the data were processed

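RNA of 12 libraries was prepared, per the labels' protocols, with an unstranded kit. The authors deposited 1 table of FPKM values per gene; their scaling between libraries is not stated in the sources at hand. The submitters' processing notes name the aligner Bowtie 0.12.2 with the mouse builds mm8 and mm9, but 99.538% of shared gene identifiers have the coordinates of GENCODE M21 (GRCm38), which are printed here. FPKM times gene length came out as whole reads within 0.01, which gave the reads per library. Members and lists were chosen with earlier results of these data known. Values for every library were given for genes changed 2-fold or more in A-iSC against AST, or in both controls, or 4-fold in any comparison, and for alternative pump subunits. From each list the 3 largest called rises and falls were named, plus a fixed set; 1 of these genes is not reported here. Limma 3.58.1 in R 4.3.3 (trended empirical Bayes) was fitted to log2(FPKM + 1) of all 12 libraries, with a mean per group, and p-values were adjusted by Benjamini-Hochberg over 15747 genes. The fit was tested on simulated data. Alternatives changed the pseudocount, filter, scaling, test, libraries and covariates, including voom on the recovered reads. Entries without a gene name (441, holding 0.0957% to 0.156% of reads) entered no list. Tables and figures were made with Python 3.11.15, pandas 2.3.3, numpy 2.4.6, scipy 1.17.1 and matplotlib 3.10.9. Promoter windows came from RefSeq, GRCm38.p6.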

Additional observations from a re-analysis of the deposited data

Results flagged for a closer look

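Reads were also assigned to a gene copy outside the comparisons. Atp6v0c-ps2, a processed pseudogene of the proton channel subunit Atp6v0c at chr6:37806086-37806550, held at least 31 and at most 124 reads in each of the 12 libraries. It averaged 8.69 ± 1.63 FPKM in A-iSC, 4.96 ± 0.791 FPKM in P56-NSC, 4.98 ± 0.823 FPKM in P0-NSC and 11.2 ± 1.73 FPKM in AST (SD, n = 3 each). AST and A-iSC were the groups with the highest means, as for Atp6v0c itself. A second copy, Atp6v0c-ps1, held 1 read in all. How the authors' counting divided reads between the copies was not tested.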

How the results depend on the processing

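Of the genes called, 15 of 26 in A-iSC against AST kept their call in every alternative, 22 of 24 in P56-NSC against AST, 24 of 30 in P0-NSC against AST, 21 of 25 in A-iSC against P56-NSC, 29 of 31 in A-iSC against P0-NSC and 12 of 27 in P56-NSC against P0-NSC. The counts in this section are drawn from all members, also Ctse, Atp6v0d2 and Lamp5, which passed the filter through 1 group only. A gene was judged only in the alternatives that tested it, and these low genes were not tested at a mean of 5 FPKM. Scaling by total reads gave 5 lower genes in A-iSC against AST (11 as deposited), 4 in A-iSC against P56-NSC (7), and 10 higher (25) and 10 lower (2) in P56-NSC against P0-NSC. Quantile normalization gave 2 lower for A-iSC against AST, 4 lower for P56-NSC against P0-NSC, and turned Atp6v1e1 in A-iSC against AST to 0.069. A filter at a mean of 5 FPKM gave 3 higher in P0-NSC against AST (5), 3 lower in A-iSC against P0-NSC (5) and 1 lower in P56-NSC against P0-NSC; fewer genes are tested there. Without a filter these lower counts were 8 and 4, but 34776 genes are tested there, members near 0 among them. The gene length covariate and leaving out AST 2 and A-iSC 3 together each gave 4 lower in P56-NSC against P0-NSC. Where no cause is named, the cause was not tested. Leaving out 1 library at a time gave 14 to 15 higher and 11 to 12 lower in A-iSC against AST, 6 to 7 and 18 to 19 in P56-NSC against AST, 4 to 5 and 23 to 26 in P0-NSC against AST, 17 to 18 and 7 in A-iSC against P56-NSC, 24 to 26 and 5 in A-iSC against P0-NSC, and 20 to 26 and 2 in P56-NSC against P0-NSC. Same-numbered libraries of different groups deviated with correlations of -0.395 to 0.442, over 0.1 in 3 of 18 pairs. Between A-iSC and AST these correlations were -0.395, 0.342 and 0.442 for libraries 1, 2 and 3. Since AST 2 and A-iSC 3 also stood apart by gene length, the correlations cannot settle whether the numbers pair libraries. With the replicate block, A-iSC against AST kept counts of 15 and 11, and P56-NSC against P0-NSC gave 23 higher. Depth, at 17077780 reads or more, leaves genes of a few reads, such as Ctse outside A-iSC, poorly measured.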

Other observations

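Atp6v1c1, a regulatory subunit of the proton pump, varied widely between libraries of a group, and no comparison called it. It had 445, 121 and 669 reads in A-iSC and 117, 523 and 338 reads in AST, and its log2 change between them was -0.02 ± 0.39.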
